A study of Saccharomyces cerevisiae with 12 samples.

Results

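The AAD genes of budding yeast (Saccharomyces cerevisiae) code for enzymes assigned to the aryl-alcohol dehydrogenases, a branch of the aldo-keto reductase superfamily. The members are AAD3, AAD4, AAD6, AAD10 and AAD14, chosen by gene symbol in the platform annotation. The family was proposed with the group differences on these arrays known, so its tests are no independent evidence. All 5 members listed had a probe set, 8 probe sets in all, among 5449 genes on 12 Affymetrix yeast arrays. AAD15, a further gene of the family, has no probe set under its symbol in the annotation and is not analysed here.

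The 12 arrays formed 4 groups of 3. They were slt2-deficient cells 2 h after addition of 100 µM sodium arsenate, untreated slt2-deficient cells sampled at 0 minutes, wild-type cells 2 h after 100 µM sodium arsenate, and untreated wild-type cells sampled at 0 minutes. The cells derived from BY4741, a laboratory strain with mating type a and deletions of LEU2, MET17 and URA3 and of part of HIS3, and grew exponentially in YEPD, a rich medium, at 30 °C. The slt2 strain lacks the mitogen-activated protein kinase Slt2 of the cell wall integrity pathway. Treated cells had grown for 2 h longer than untreated ones, so arsenate and culture time cannot be told apart. The submitters call the replicates independent without saying whether they were separate cultures, so the p-values reflect only how these samples vary, and that variation may be technical. In such cultures, less RNA of a gene per cell and fewer cells that express it cannot be told apart.

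Enzymes of this kind use NADPH to reduce aromatic aldehydes to the alcohols. The family was named for its likeness to an aryl-alcohol dehydrogenase of the lignin-degrading fungus Phanerochaete chrysosporium, and the natural substrates of the yeast enzymes are not settled. AAD4 and AAD6 are known to respond to oxidants through Yap1, the transcription factor that switches on thiol and oxidant defence genes. Arsenate is reduced in the cell to arsenite, which binds thiols.

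Signals are log2 values, and each change is a log2 fold change of group means with its standard error (SE). A gene is called where limma's adjusted p, over all 5449 genes, is under 0.05. The SLT2 signal lay between 5.22 and 5.81 on the slt2 arrays, against 10.66 to 11.01 on the wild-type arrays. LEU2, URA3 and MET17, deleted in this strain, lay between 3.74 and 5.47 on all 12 arrays, the signal of these probe sets without their transcripts. HIS3, deleted only in part, had means of 12.09 and 12.03 in slt2 with and without arsenate, and of 11.54 and 12.05 in wild type with and without arsenate, and does not check the strain. The 7 a-cell marker genes lay between 7.90 and 13.68 and the 4 alpha-cell marker genes between 5.05 and 9.46. Replicates were tighter in slt2: the SD of the median gene was 0.07 with arsenate and 0.08 without, against 0.49 in wild type with arsenate and 0.21 in untreated wild type. Wild-type arsenate arrays 1 and 2 and wild-type untreated array 2 stood apart from the others. The median signal of 28 general stress genes was 13.85, 12.48 and 9.63 on wild-type arsenate arrays 1, 2 and 3, against 9.32, 11.21 and 9.57 on wild-type untreated arrays 1, 2 and 3. It lay between 9.33 and 9.82 on the 6 slt2 arrays. For 18 glucose-repressed genes the median signal was 12.99 on wild-type arsenate array 1, and no more than 7.58 elsewhere.

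In slt2 cells AAD4 and AAD6 rose with arsenate, 1.97-fold and 2.05-fold. AAD3, AAD10 and AAD14 did not pass. Thus 2 of 5 members were called higher and 0 lower, where 1.91% of all genes were called higher and 0.551% lower (2.46% in either direction). At an unadjusted p under 0.05 stood 3 of 5 members and 16.7% of all genes. The plot of signals by array shows the values behind these calls.

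**Figure D1:**
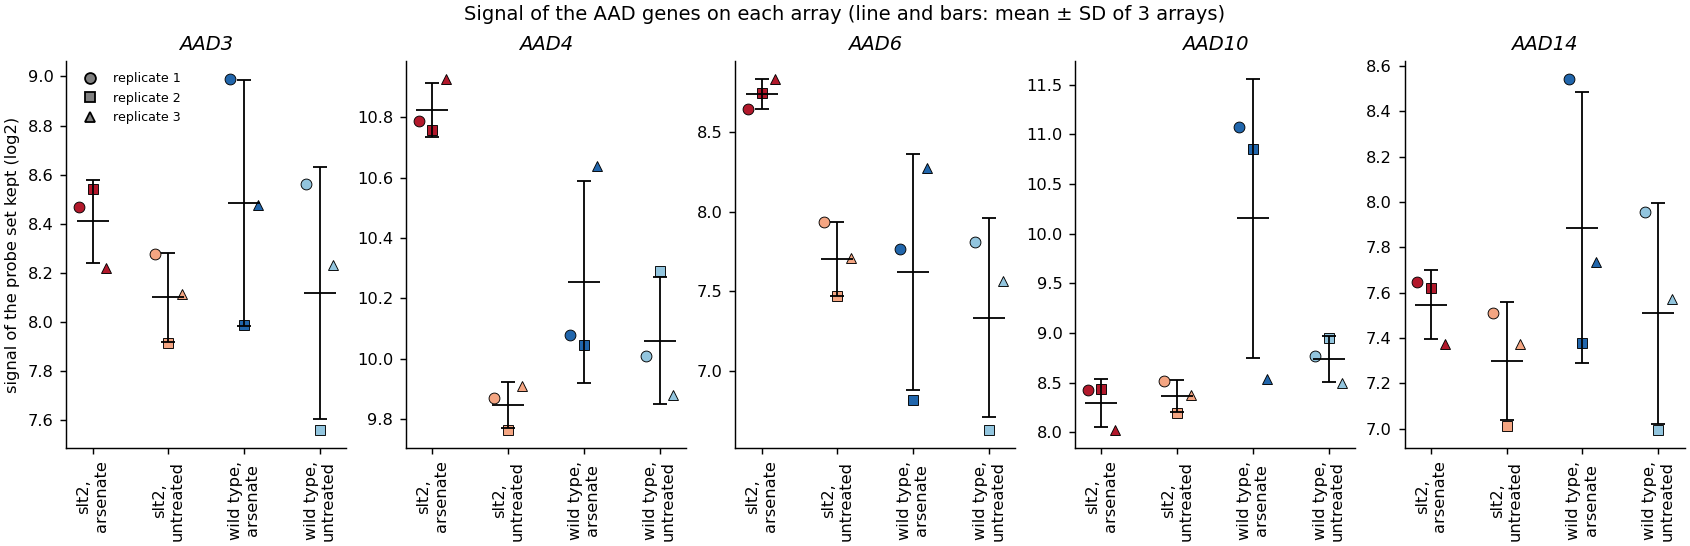
Log2 signal of the probe set kept for each AAD gene on the 12 arrays, in a panel per gene with its own axis, with each array as a point (marker shape: replicate number) and the mean ± SD of 3 arrays per group. AAD4 and AAD6 were higher on all 3 slt2 arrays with arsenate than on any other array, while AAD10 was highest on wild-type arsenate arrays 1 and 2.

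AAD4 (locus YDL243C) had signals of 10.79, 10.76 and 10.93 on the slt2 arrays with arsenate, against 9.87, 9.76 and 9.91 on the untreated slt2 arrays. All 3 treated arrays lay above all 3 untreated ones, and the gap was several times the spread within either group. The mean was 10.82 ± 0.09 (SD, n = 3) with arsenate and 9.85 ± 0.08 without. The log2 fold change was 0.98 (SE 0.07, 95% interval 0.82 to 1.14, limma adjusted p = 0.00148), a 1.97-fold rise. Of the 5449 genes, 30 had a larger one.

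AAD6 (locus YFL056C) is listed as a pseudogene in the R64 reference annotation. The array has 1 probe set assigned to that locus, and binding of related transcripts to it was not tested. Its signals were 8.65, 8.75 and 8.83 on the slt2 arrays with arsenate, against 7.93, 7.47 and 7.71 on the untreated slt2 arrays. The groups did not overlap. The mean was 8.74 ± 0.09 (SD, n = 3) with arsenate and 7.70 ± 0.23 without, a log2 fold change of 1.04 (SE 0.12, 95% interval 0.75 to 1.32, limma adjusted p = 0.0105). This 2.05-fold rise was exceeded by 18 genes.

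The call of AAD6 was less secure than that of AAD4. It was lost when slt2 untreated replicate 3 or slt2 arsenate replicate 2 was left out (limma adjusted p = 0.056 and 0.058), whereas AAD4 kept its call without any single array (adjusted p between 0.00408 and 0.0117). With 1 spread shared by all 12 arrays, wild type included, neither gene passed (adjusted p = 0.247 for AAD4 and 1.0 for AAD6), and 2 genes were called in all.

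AAD3 (locus YCR107W) had signals of 8.47, 8.54 and 8.22 on the slt2 arrays with arsenate, against 8.28, 7.91 and 8.11 on the untreated slt2 arrays. Arsenate arrays 1 and 2 lay above all untreated arrays and array 3 lay among them. The log2 fold change of 0.31 (SE 0.12, 95% interval 0.03 to 0.59) did not pass (limma adjusted p = 0.255).

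AAD14 (locus YNL331C) had signals of 7.65, 7.62 and 7.37 on the slt2 arrays with arsenate, against 7.51, 7.01 and 7.37 on the untreated slt2 arrays. The groups overlapped, and the log2 fold change was 0.25 (SE 0.14, 95% interval -0.09 to 0.58, limma adjusted p = 0.452).

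AAD10 (locus YJR155W) had a change near 0 in slt2. Its signals were 8.43, 8.44 and 8.02 with arsenate, against 8.52, 8.20 and 8.37 untreated. The log2 fold change was -0.07 (SE 0.14, limma adjusted p = 0.874). Its 95% interval, -0.39 to 0.26, does not hold the change of AAD4 or AAD6.

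Of the 5 members, 2 (AAD4 and AAD6) had arsenate arrays wholly above the untreated arrays in slt2, where this held for 15.3% of all genes, and 0 lay wholly below, where 7.27% did. The median change of the 5 was 0.31, beside 0.03 over all genes. Of the members 4 of 5 were above 0, as were 61.1% of all genes.

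Several members are read by probe sets that other transcripts can bind. On this type of array the suffix _s_at marks probes shared by several transcripts, often of a gene family, and _x_at marks probes close to other sequences. Among several probe sets of 1 gene, the brightest on average over the 12 arrays was kept: this mean is the measured value that the choice used. For AAD3 the means were 8.28, 7.45 and 6.18, and for AAD4 10.25 and 5.51. AAD3 had 3 probe sets and AAD4 had 2, and the set kept was an _s_at set for both. The sources used here do not say which other transcripts those sets bind.

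The other probe set of AAD4, an _at set, gives no secure separate support for the rise. Its signals in slt2 lay no higher than the highest of the deleted SLT2. It had signals of 5.69, 5.66 and 5.66 on the slt2 arrays with arsenate, against 5.21, 4.71 and 4.96 on the untreated slt2 arrays. With every probe set fitted as a row of its own, an alternative added after the data were seen, its log2 fold change was 0.71 (SE 0.12, limma adjusted p = 0.0377). The deleted SLT2, at 5.22 to 5.81 on these arrays, reached as high. LEU2, URA3 and MET17, at most 5.47, lay below the _at signals with arsenate. The background of the _at set itself was not measured. The AAD4 call thus rests on the _s_at set, whose probes other transcripts can bind. For AAD3 the log2 fold change in slt2 was 0.31, 0.29 and 0.53 with its _s_at, _x_at and _at sets, and none of the 3 passed (adjusted p = 0.257, 0.359 and 0.135).

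**Figure D2:**
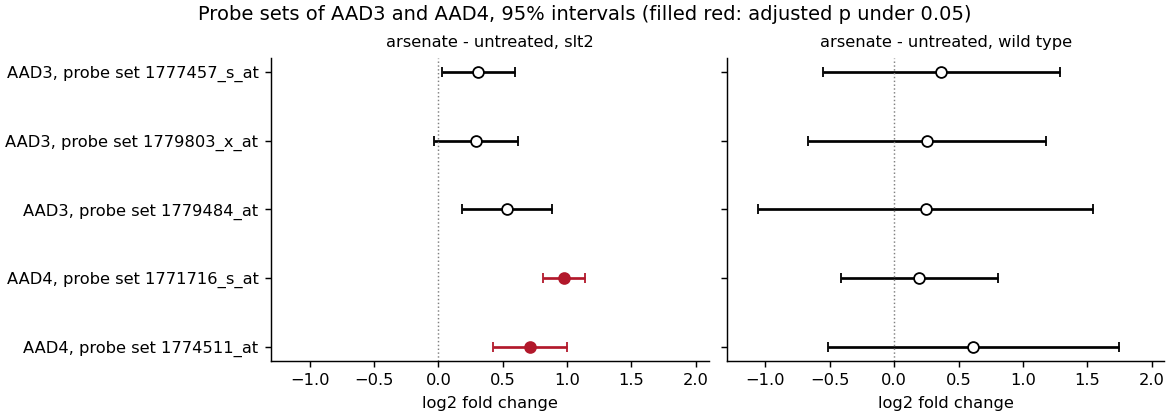
Arsenate effect (log2 fold change, arsenate minus untreated) of each probe set of AAD3 and AAD4 in slt2 cells (left) and wild-type cells (right), with 95% intervals, and filled red where the adjusted p is under 0.05. Both AAD4 sets lie above 0 in slt2 (0.98 and 0.71), the lower one at signals no higher than the highest of the deleted SLT2. Every interval in wild type includes 0.

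In wild-type cells no AAD gene was called with arsenate. The count was 0 of 5 in limma, as it was 0% of all genes, and 0 of 5 had an unadjusted p under 0.05, where 1.32% of all genes did. All 5 changes were above 0, as were 55.2% of all genes. The median of the 5 was 0.37, beside 0.06 over all genes. In 0 members did the arsenate arrays lie wholly above or below the untreated ones, where 5.65% of all genes lay above and 2.92% below.

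AAD10 had the largest change of the 5 in wild type and the most uneven one. Its signals were 11.08, 10.85 and 8.54 on wild-type arsenate arrays 1, 2 and 3, against 8.77, 8.95 and 8.49 on wild-type untreated arrays 1, 2 and 3. Arrays 1 and 2 stood more than 2 log2 units above the untreated mean of 8.74, and array 3 lay 0.20 below it. The log2 fold change was 1.42 (SE 0.69, 95% interval -0.27 to 3.10, limma adjusted p = 0.631).

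The arsenate arrays with high AAD10 were those with high general stress signals, whose medians of 13.85 and 12.48 stand above. All 28 general stress genes had a change above 0 in wild type, where 55.2% of all genes did. The median of the 28 was 2.13, and 0 were called, as were 0% of all genes. Untreated array 2, at 11.21 for the stress genes, had an AAD10 signal of 8.95, the highest of the untreated arrays. The part of this stress level in the AAD10 result was not tested. With the 3 discrepant wild-type arrays (arsenate 1 and 2, untreated 2) left out, the AAD10 change was -0.09. That fit kept 1 wild-type arsenate array, which is assumed to vary like the untreated ones.

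**Figure D3:**
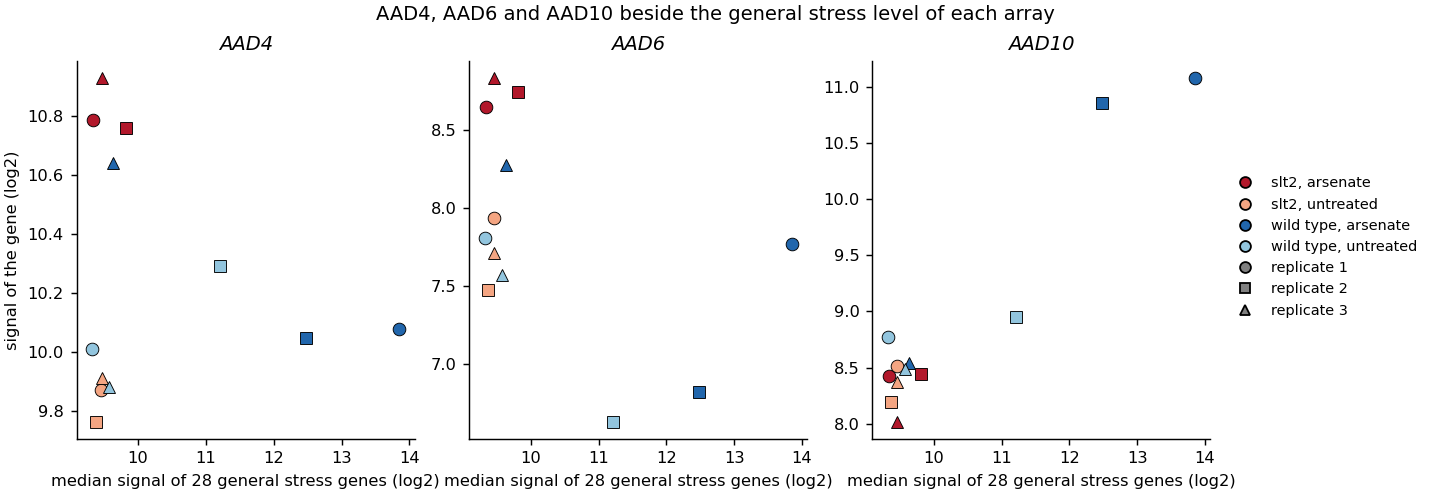
Log2 signal of AAD4, AAD6 and AAD10 (vertical axes) against the median log2 signal of 28 general stress genes (horizontal axes), with 1 point per array, coloured by group and shaped by replicate number. AAD10 exceeds 10 only on wild-type arsenate arrays 1 and 2, where the stress median is 13.85 and 12.48, while AAD4 and AAD6 are highest on slt2 arsenate arrays with a stress median of 9.82 or less.

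AAD4 and AAD6 were highest on another wild-type arsenate array than AAD10. AAD4 had signals of 10.08, 10.05 and 10.64 on wild-type arsenate arrays 1, 2 and 3, against 10.01, 10.29 and 9.88 on wild-type untreated arrays 1, 2 and 3. Only arsenate array 3 lay above all untreated arrays, and it was the arsenate array with the lowest stress median, 9.63. Among the untreated arrays AAD4, like AAD10, was highest on array 2, whose stress median was 11.21. The log2 fold change was 0.19 (SE 0.25, 95% interval -0.41 to 0.80, limma adjusted p = 0.693). The _at set of AAD4 did not share this pattern, with 6.86, 5.13 and 6.06 on wild-type arsenate arrays 1, 2 and 3, against 5.48, 5.06 and 5.66 on wild-type untreated arrays 1, 2 and 3. There arsenate arrays 1 and 3 exceeded the untreated arrays, and the log2 fold change was 0.62 (SE 0.46, adjusted p = 0.63). No other wild-type array had an _at signal above 5.81, the highest of the deleted SLT2 on the slt2 arrays. Untreated arrays 1 and 3, at 5.48 and 5.66, lay above LEU2, URA3 and MET17, whose highest signal was 5.47.

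AAD6 had signals of 7.77, 6.82 and 8.28 on wild-type arsenate arrays 1, 2 and 3, against 7.81, 6.63 and 7.57 on wild-type untreated arrays 1, 2 and 3. Again arsenate array 3 alone exceeded the untreated arrays. The log2 fold change was 0.29 (SE 0.48, 95% interval -0.90 to 1.47, limma adjusted p = 0.761). Without the 3 arrays that stood apart the changes were 0.69 for AAD4 and 0.59 for AAD6, from 1 arsenate array, and neither passed (adjusted p = 1.0 for both).

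In wild type the replicates of AAD3 and AAD14 differed within a treatment by more than the treatment means did. AAD3 had signals of 8.99, 7.99 and 8.48 on wild-type arsenate arrays 1, 2 and 3, against 8.56, 7.56 and 8.23 on wild-type untreated arrays 1, 2 and 3. AAD14 had 8.54, 7.38 and 7.74 on wild-type arsenate arrays 1, 2 and 3, against 7.96, 6.99 and 7.57 on wild-type untreated arrays 1, 2 and 3. In both treatments replicate 2 was the lowest for AAD3, AAD14 and AAD6. The log2 fold changes were 0.37 (SE 0.38) for AAD3 and 0.38 (SE 0.40) for AAD14, with limma adjusted p of 0.638 and 0.643. As a sign of RNA quality, signals at the 3' end were set against those at the 5' end of 7 control transcripts. The difference, 3' minus 5', was 1.79 on wild-type arsenate array 2 and 1.59 on wild-type untreated array 2. The remaining 10 arrays had 0.92 to 1.18. Its part in the low signals of these arrays was not tested.

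This comparison and those after it reuse the arrays above. Set side by side, slt2 and wild-type cells with arsenate gave 3 members whose arrays did not overlap. AAD4 and AAD6 lay wholly above wild type in slt2, and AAD10 lay wholly below, where 16.5% of all genes lay above and 23.6% below. None of the 5 was called by limma, as for all but 0.0184% of genes, and 3 of 5 had an unadjusted p under 0.05, where 8.9% of all genes did. The mean of AAD6 was 8.74 ± 0.09 in slt2 and 7.62 ± 0.74 in wild type (SD, n = 3 each), a difference of 1.12 (SE 0.38, 95% interval 0.18 to 2.07). AAD4 averaged 10.82 ± 0.09 in slt2 and 10.25 ± 0.33 in wild type, a difference of 0.57 (SE 0.21, 95% interval 0.05 to 1.09). With its _at set the direction turned, to -0.35 (SE 0.44). Of these 6 arrays only wild-type arrays 1 and 3, at 6.86 and 6.06, had _at signals above 5.81. That was the highest signal of the deleted SLT2 on the slt2 arrays. AAD10 averaged 8.30 ± 0.24 in slt2 and 10.16 ± 1.41 in wild type, a difference of -1.86 (SE 0.70, 95% interval -3.60 to -0.12). The limma adjusted p was 0.365 for all 3 genes.

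With the 3 discrepant wild-type arrays left out these differences were smaller, at 0.47 for AAD6, 0.18 for AAD4 and -0.24 for AAD10, and none passed (limma adjusted p = 0.108, 0.292 and 0.478). Wild type then had 1 array, assumed to vary like the slt2 arrays, so these p-values hold no wild-type spread. Without wild-type arsenate replicate 3, the one with a low stress level, AAD10 was called lower in slt2 (log2 difference -2.67, adjusted p = 0.0498). AAD3 and AAD14 differed by -0.07 and -0.34 with intervals on both sides of 0 (adjusted p = 0.87 and 0.491).

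Without arsenate the slt2 and wild-type arrays overlapped for all 5 members, where 8.94% of all genes were wholly higher and 17.9% wholly lower in slt2. None was called by limma, against 0.0184% of all genes, and 1 of 5 (AAD10) had an unadjusted p under 0.05, where 13.6% of all genes did. AAD10 averaged 8.36 ± 0.16 in slt2 and 8.74 ± 0.23 in wild type (SD, n = 3 each), a difference of -0.38 (SE 0.15, adjusted p = 0.363). For AAD6 the difference was 0.37 (SE 0.32) and for AAD4 -0.21 (SE 0.13). It was -0.21 (SE 0.27) for AAD14 and -0.02 (SE 0.26) for AAD3, with adjusted p for these 4 genes between 0.470 and 0.976.

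Whether arsenate acted differently in slt2 than in wild type was tested over all 12 arrays, as effect in slt2 minus effect in wild type. No member was called, as 0% of all genes were, and 1 of 5 members had an unadjusted p under 0.05, where 0.514% of all genes did. That gene was AAD4, with an effect of 0.98 in slt2 and 0.19 in wild type, a difference of 0.78 (SE 0.25, 95% interval 0.23 to 1.33, limma adjusted p = 0.711). With the _at set of AAD4 it was 0.095 (SE 0.51, adjusted p = 0.933). Most signals of that set lay no higher than 5.81, the highest of the deleted SLT2 on the slt2 arrays. AAD6 had an effect of 1.04 in slt2 and 0.29 in wild type, a difference of 0.75 whose interval ran from -0.43 to 1.94. AAD10 had an effect of -0.07 in slt2 and 1.42 in wild type, a difference of -1.48 with an interval of -3.18 to 0.21. For AAD3 and AAD14 the differences were -0.06 and -0.13. Thus no member was shown to respond differently in the 2 genotypes. The result for AAD10 rested on single arrays, since it was called without wild-type arsenate replicate 3 (-2.29, adjusted p = 0.0136) and was 0.03 without the 3 arrays that stood apart.

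**Figure D4:**
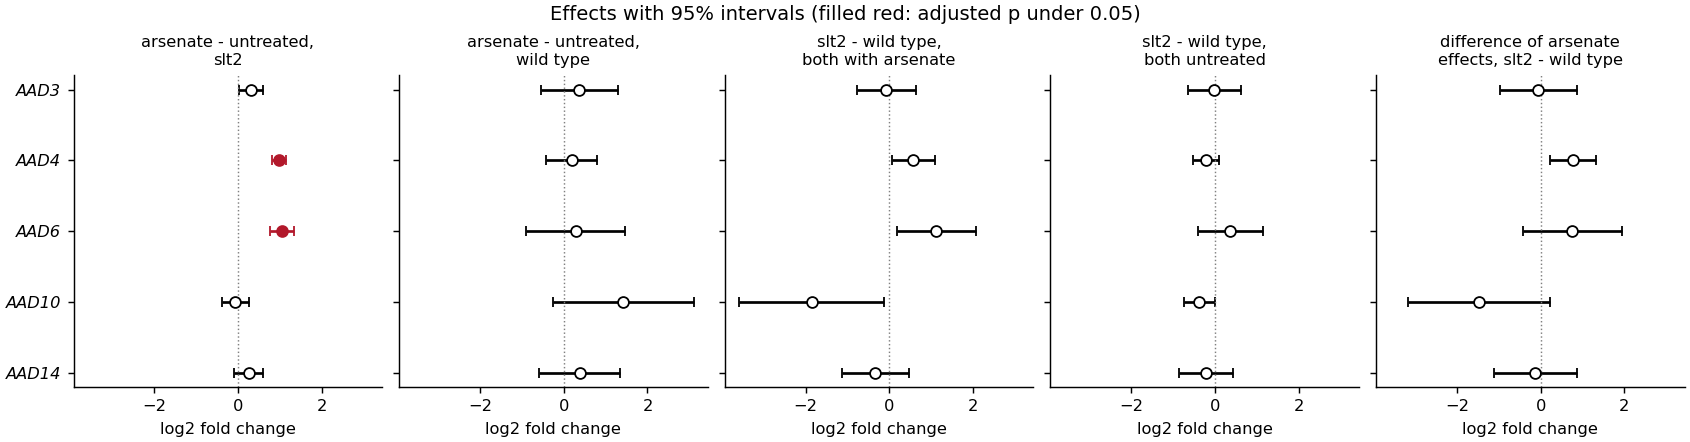
Log2 fold changes of the 5 AAD genes in the 5 comparisons, with 95% intervals, filled red where the adjusted p is under 0.05. AAD4 (0.98) and AAD6 (1.04) in slt2 are the filled points, and AAD10 has the widest intervals wherever wild-type arsenate arrays enter.

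The order of the 4 groups thus differed between members. For AAD4 it was slt2 with arsenate, wild type with arsenate, untreated wild type and untreated slt2, and of these neighbours only the uppermost pair did not overlap. For AAD6 slt2 with arsenate was followed by untreated slt2, wild type with arsenate and untreated wild type, and again only the uppermost pair did not overlap (difference 1.04). For AAD10, AAD3 and AAD14 wild type with arsenate came first, and all neighbours in their orders overlapped.

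Likeness of the members was measured as the root mean square difference over the 12 arrays, after each gene was centred on its own mean. AAD3 and AAD14 were the closest pair, at 0.14 log2 units. AAD14 ranked 17th nearest to AAD3 among all other genes and AAD3 ranked 16th nearest to AAD14. AAD4 and AAD6, the members that rose in slt2, were 0.49 apart. AAD10 was the most remote, at 0.84 to 1.40 from the other members. The 12 arrays share 4 groups and the arrays that stood apart, so this is a description.

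Outside the family, the genes nearest to AAD4 were FLR1, which codes for a plasma membrane drug exporter, MET10, a subunit of sulfite reductase, and SUL2, a sulfate permease, at 0.19, 0.21 and 0.23. All 3 were called higher with arsenate in slt2, with log2 fold changes of 0.64, 0.99 and 0.55, where 1.91% of all genes were. The choice by likeness used the same slt2 arrays, so calls of such genes follow in part from the choice and are no separate evidence. Nearest to AAD6 were MEI4, a gene of meiotic recombination, DRE2, of iron-sulfur cluster assembly, and LYS20, a homocitrate synthase of lysine synthesis, at 0.29, 0.30 and 0.30. Of these MEI4 and DRE2 were called higher in slt2 (0.63 and 0.72), and LYS20 was not (0.35). Nearest to AAD10 were YPR127W, ATG19, a receptor for cargo of selective autophagy, and YJL132W, at 0.27, 0.28 and 0.28. Their log2 fold changes were 0.22, 0.21 and 0.37 in slt2 and 1.66, 1.28 and 1.33 in wild type, and none passed in either. AAD3 was closest to RAD14, of nucleotide excision repair, VPS41, of vacuolar sorting, and GTO1, a glutathione transferase. AAD14 was closest to KRE28, of the kinetochore, VPS41 and MSH5, of meiotic recombination. Both sets lay at 0.10 to 0.12.

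The measured relative YPL088W, annotated in yeast as a putative aryl-alcohol dehydrogenase, is set beside the members here. It had signals of 8.24, 8.30 and 8.30 on the slt2 arrays with arsenate, against 8.11, 7.80 and 8.03 on the untreated slt2 arrays. The wild-type signals were 9.43, 9.03 and 8.86 with arsenate, against 8.97, 8.59 and 8.74 untreated. Every slt2 array was thus below every wild-type array. Within a treatment, slt2 lay wholly below for 23.6% of all genes with arsenate and 17.9% without, and for AAD10 with arsenate only. The difference for YPL088W, slt2 minus wild type, was -0.83 (SE 0.19) with arsenate and -0.79 (SE 0.14) without. Neither passed (limma adjusted p = 0.365 and 0.36). The arsenate effect on YPL088W in slt2 was 0.30 (SE 0.09, adjusted p = 0.148), near those of AAD3 (0.31) and AAD14 (0.25). In wild type it was 0.34, beside 0.37 for AAD3 and 0.38 for AAD14.

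All 5 members lie near chromosome ends, with AAD3 the 2nd annotated gene from an end, AAD4 and AAD10 the 6th, AAD14 the 7th and AAD6 the 11th, in the R64 annotation. YPL088W is the 201st. None of the genes beside the members was called. Up to 3 measured genes on each side within 20 kb gave 22 neighbours. Limma called 0 of them with arsenate in slt2, where 2.46% of all genes were called. An unadjusted p under 0.05 was found for 1 of the 22, where 16.7% of all genes had it. With so few neighbours, a count of 0 called does not set them apart from all genes. Their log2 fold changes lay between -0.16 and 0.41, with a median of 0.11. Next to AAD4 were THI13, of thiamine synthesis, with 0.20 (SE 0.14), and YDL241W, with 0.19 (SE 0.09). Next to AAD6 were SNZ3, of vitamin B6 synthesis, with 0.19 (SE 0.09), and the amino acid permease gene AGP3, with 0.01 (SE 0.18). Of 498 other genes among the 20 nearest to a chromosome end, 14 were called higher in slt2, or 2.81%, and 5 lower. Over all genes 1.91% were called higher and 0.551% lower. The median change was 0.03 both near the ends and over all genes. That distance from the end was chosen after the data were seen.

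**Figure D5:**
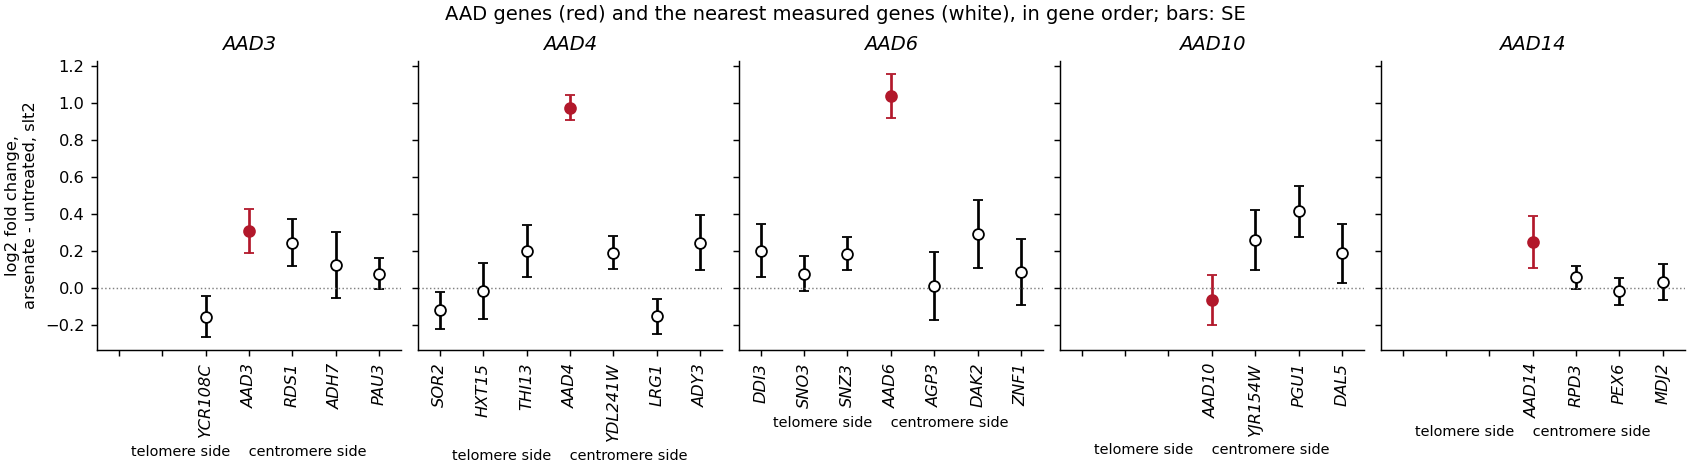
Arsenate effect in slt2 cells (log2 fold change, arsenate minus untreated, bars: SE) of each AAD gene (red) and up to 3 measured genes on its telomere and centromere sides (white), in gene order. AAD4 and AAD6 stand at 0.98 and 1.04, while no neighbour exceeds 0.41.

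Genes of related function were counted in the same fits, and in these counts rose and fell mean called higher and called lower. In slt2 with arsenate 1.91% of all genes rose and 0.551% fell. Of the other 7 aldo-keto reductase genes, 1 rose and 0 fell in slt2 with arsenate: YPR1, a reductase of aldehydes and ketones, with a log2 fold change of 0.38 (SE 0.04, limma adjusted p = 0.0104). ARA1, the arabinose dehydrogenase gene, had 0.25 (adjusted p = 0.121). The list had a median of 0.19, with 7 of 7 above 0, where 61.1% of all genes were. In wild type its median was 1.13, again with 7 of 7 above 0, where 55.2% of all genes were. There 0 were called, as were 0% of all genes, and 1 had an unadjusted p under 0.05, where 1.32% of all genes did.

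Over all genes 1.91% rose and 0.551% fell in slt2 with arsenate. In the list of 15 genes of the fusel and aromatic alcohol pathway, 2 rose and 0 fell. They were ARO10, the decarboxylase that turns phenylpyruvate into an aldehyde, with 0.65 (SE 0.10, limma adjusted p = 0.0271), and SFA1, an alcohol and formaldehyde dehydrogenase, with 0.28 (SE 0.04, adjusted p = 0.0294). The median was 0.12. In wild type the median was 0.17. There 0 were called and 0 had an unadjusted p under 0.05, against 0% and 1.32% of all genes.

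Of 21 Yap1 targets, 9 rose and 0 fell in slt2, where 1.91% and 0.551% of all genes did. The median of the 21 was 0.22. The largest changes were those of OYE3, an NADPH oxidoreductase (1.42), GTT2, a glutathione transferase (1.25), GRE2, a methylglyoxal reductase (1.17), and ATR1, a drug efflux carrier (1.16). In wild type the median was 0.40. There 0 were called and 3 had an unadjusted p under 0.05, against 0% and 1.32% of all genes. AAD4 and AAD6, at 0.98 and 1.04, lay inside the range of the 21 targets in slt2, -0.18 to 1.42. That wide range also held AAD3, AAD14 and AAD10, at 0.31, 0.25 and -0.07, so it does not single out AAD4 and AAD6. The part of Yap1 in their rise was not tested.

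Of 10 regulator genes, 1 rose and 0 fell in slt2, where 1.91% and 0.551% of all genes did. The regulator that rose was ARR1, the activator of the arsenic resistance genes (0.35, SE 0.05, limma adjusted p = 0.023). MSN4, a general stress activator, had 0.62 (SE 0.12, adjusted p = 0.0607). YAP1 itself, named after its value was seen, had -0.20 (SE 0.07, adjusted p = 0.241). Of the 28 general stress genes limma called 0 higher and 3 lower in slt2, against 1.91% and 0.551% of all genes. The 3 were the catalase gene CTT1 (-0.57), and GND2 (-0.61) and TKL2 (-0.62), both of the pentose phosphate pathway. The list's median was 0.19, with 16 of 28 above 0, where 61.1% of all genes were. At an unadjusted p under 0.05 stood 16 of the 28 genes and 16.7% of all genes. Some of the 16 were higher and some lower with arsenate. The list's highest value was 1.03 (SE 0.29, adjusted p = 0.144) for HSP12, a membrane-protecting stress protein, named after its value was seen. Of the 18 glucose-repressed genes limma called 0 in slt2, where 2.46% of all genes were called. An unadjusted p under 0.05 was found for 5 of the 18 and for 16.7% of all genes.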

How the data were processed

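RNA of 12 yeast samples was hybridised to Affymetrix arrays. The deposited values are log2 signals, 1 per probe set, made by the authors, who per the submitters' processing notes used RMA and Expression Console. This method corrects background, evens out the distributions of arrays and summarises probes, so a shift shared by most genes would not show. The sources used here give neither versions nor whether all arrays shared 1 run. Values (3.05 to 14.91, array medians 9.98 to 10.20) fit a log2 scale. The number of arrays limits the precision.

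Of 5814 probe sets, 5498 had 1 gene symbol, 0 had several and 316 had none. All 5498 were matched by gene number to RefSeq R64, from which current symbols and gene order come. Where probe sets shared a gene (47 genes), the brightest on average over the 12 arrays stood for it, which left 5449 genes.

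Models of group means were fitted with limma 3.58.1 (lmFit, eBayes, default settings) in R 4.3.3 and tested on simulated data. Each 2-group comparison used its 6 arrays, because the genotypes differed in spread, and the difference of effects used all 12. Benjamini-Hochberg adjustment ran over 5449 genes. Named were the members, YPL088W, up to 3 neighbours on each side, the 3 genes most like each member, and, per list, up to 4 called genes, or the 2 with the smallest p where fewer than 2 were called. The members, lists, tests and alternatives were chosen with earlier results of these data known. Python 3.11.15 and matplotlib 3.10.9 drew the figures.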

Additional observations from a re-analysis of the deposited data

How the results depend on the processing

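In slt2 with arsenate, 2 AAD genes were called. The count was 0 with all 12 arrays, 1 with the replicate block and 1 to 2 when 1 array was left out. For slt2 against wild type with arsenate it was 3 with 1 weight per array and 0 to 1 when 1 array was left out, against 0 as reported. For the difference of arsenate effects it was 3 with 1 weight per array and 0 to 1 when 1 array was left out, against 0. It was 0 under all alternatives for wild type and for the untreated genotypes. The weights per array were estimated gene by gene, because the default estimator did not converge in 4 of 5 comparisons. Over all 5449 genes the slt2 count ran from 2 (all 12 arrays) to 419, against 134 as reported, and 1 weight per array gave 1294 for the genotypes with arsenate and 671 for the difference, against 1 and 0.

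Same-numbered replicates did not deviate together in every pair of groups (r over genes of 0.05 to 0.39 in slt2 and 0.04 to 0.47 in wild type, and from -0.17 to 0.31 between genotypes), so the numbers were not taken as pairs. With the replicate block AAD4 kept its call in slt2 (adjusted p = 0.00818) and AAD6 did not (0.0596).

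Signs turned only for changes that were not called. Leaving out 1 array, AAD10 in slt2 ran from -0.148 (without untreated replicate 2) to 0.073 (without arsenate replicate 3), and was 0.013 without untreated replicate 1. In wild type, 1 weight per array gave -0.12 for AAD3, -0.37 for AAD6 and -0.12 for AAD14. Leaving out 1 array, AAD6 ran from -0.068 (without untreated replicate 2) to 0.686 and was -0.042 without arsenate replicate 3. Without the 3 arrays that stood apart AAD10 was -0.092 and AAD14 -0.029. For slt2 against wild type with arsenate, AAD3 was 0.33 with 1 weight per array, 0.031 with quantile normalization, -0.323 to 0.179 leaving out 1 array (0.021 without slt2 arsenate replicate 3), and 0.64 and 0.23 with its other probe sets. AAD4 was -0.35 with its other probe set, and AAD14 was 0.11 with 1 weight per array. Untreated, AAD3 was 0.042 with centred arrays, 0.066 with quantile normalization, 0.35 and 0.196 with its other probe sets, and -0.297 to 0.205 leaving out 1 array. AAD14 was -0.467 to 0.015 leaving out 1 array. In the difference of effects, AAD3 was 0.47 with 1 weight per array, 0.29 and 0.036 with its other probe sets, 0.23 without the 3 arrays that stood apart, and -0.306 to 0.223 leaving out 1 array. AAD14 was 0.36 with 1 weight per array, 0.28 without the 3 arrays, and -0.384 to 0.198 leaving out 1 array. AAD10 was 0.027 without the 3 arrays. The causes of these changes were not tested.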
